A study of Mus musculus with 4 samples.

Results

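The cells described here were those of the ovary-intact mouse vaginal epithelium in which messages of Krt13, Krt4 and Sprr1a outnumbered those of Krt10 and Krt6b. A cell was a member when it held at least 3 unique molecular identifiers (UMIs, each marking 1 captured transcript) of Krt13, Krt4 and Sprr1a together and more of these than of Krt10 and Krt6b. It also had to hold at most 2 UMIs of Krt1 and Calm4 and at most 1 UMI of 10 genes of dividing cells, such as Mki67 and Top2a. Cells with fewer than 200 detected genes or with over 20% of UMIs from mitochondrial genes were left out. The rule found 383 cells, 272 in the first and 111 in the second ovary-intact library, of 4966 kept cells in these libraries and 8446 in the study. Because these counts chose the members, the levels of the selecting genes are given as a description with no test. They are called Krt13/Krt4/Sprr1a cells or members below.

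The study profiled the vaginal epithelium of C57BL/6 mice by Drop-seq, a droplet method that counts the transcripts of single cells. It has 2 libraries labelled WT, from mice with intact ovaries, and 2 labelled OVX, from mice whose ovaries were removed by surgery. Each library pooled the cells of 5 mice after overnight digestion with pronase, and the labels give no age, oestrous stage or time after surgery. The libraries of a group are described as duplicates and nothing says that they came from separate mice. The p-values of OVX against WT thus reflect the spread from library to library alone, which could be purely technical. Those between WT populations reflect the spread left once the difference between libraries is removed, as described below.

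The vaginal lining is a stratified squamous epithelium that renews from a basal layer expressing Krt5 and Krt14. Cells that leave this layer change their keratins and build a cornified envelope, a crosslinked protein shell of which small proline-rich proteins such as Sprr1a form part. Krt13 and Krt4 are the keratins of internal, mucosa-type stratified epithelia, whereas Krt1 and Krt10 are typical of cornifying epidermis. The lining thickens and cornifies under oestrogen and becomes thin and mucous without it.

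In GENCODE vM21 (mm10, the build named in the submitters' processing notes), Krt13 is a protein-coding gene on chromosome 11 (100117327 to 100121566, minus strand). Krt4 lies on chromosome 15 (101918535 to 101924735, minus strand) and Sprr1a on chromosome 3 (92483952 to 92485895, minus strand). The promoters of Krt13 and Sprr1a are shown because these genes chose most of the cells. They are RefSeq windows (GRCm38.p6) from 250 bases before to 50 after a transcription start, read 5′ to 3′ on the minus strand, at chr11:100121517-100121816 and chr3:92485832-92486131. Capitals mark matches to TGANTCA, where N is any base, a loose form of the core motif bound by AP-1 factors (Fos and Jun families). As a pattern it reads the same on both strands.
Krt13: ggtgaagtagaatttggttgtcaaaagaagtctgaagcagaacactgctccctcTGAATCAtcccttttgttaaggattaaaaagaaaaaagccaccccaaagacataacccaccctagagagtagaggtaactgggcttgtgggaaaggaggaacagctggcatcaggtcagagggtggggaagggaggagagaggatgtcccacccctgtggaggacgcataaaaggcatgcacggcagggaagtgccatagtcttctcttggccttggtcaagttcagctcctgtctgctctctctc
Sprr1a: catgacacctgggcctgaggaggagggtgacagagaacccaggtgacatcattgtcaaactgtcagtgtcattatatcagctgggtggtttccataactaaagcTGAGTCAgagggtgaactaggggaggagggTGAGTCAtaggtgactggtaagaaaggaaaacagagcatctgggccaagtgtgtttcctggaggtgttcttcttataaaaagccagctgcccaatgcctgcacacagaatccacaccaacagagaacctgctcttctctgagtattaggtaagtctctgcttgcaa
The Krt13 window shown held 1 match, TGAATCA, and the Sprr1a window 2, both TGAGTCA. Another RefSeq window of Krt13, at chr11:100120528-100120827, held 2, and those of Tmprss11b and Il33, genes described below, held 0. Of 32851 mouse promoter windows of this length, 7.81% held at least 1 match. Among windows of genes tested against the other populations the share was 5.00%. It was 8.94% for genes higher and 10.6% for genes lower in members than in Krt10/Krt6b cells, and 8.41% for genes higher and 6.99% for genes lower than in basal cells. The Grainyhead motif AACCGGTT, which also reads the same on both strands, had no match in any window named here and was held by 0.146% of all windows. A match is a run of letters and not a measured binding site.

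Members made up 9.13% of kept cells in WT library 1 (Wilson 95% interval 8.15 to 10.2%) and 5.59% in WT library 2 (4.66 to 6.68%). The same rule selected 0.954% of cells in OVX library 1 (0.579 to 1.57%, 15 cells) and 2.62% in OVX library 2 (1.99 to 3.44%, 50 cells). Both WT shares lay above both OVX shares, and libraries of the same group also differed by more than counting error. Kept cells of the WT libraries held a median of 1597 and 799 UMIs, and those of the OVX libraries 435 and 738. With each cell thinned to 500 UMIs the shares were 7.22% and 3.99% in WT and 0.645% and 1.02% in OVX, in the same order of groups. Thinning left out 256 shallower cells of WT library 2, 953 of OVX library 1 and 248 of OVX library 2. Among cells with 500 or more genes the shares were 9.11% and 5.97% in WT and 2.79% and 4.44% in OVX, and the intervals of OVX library 2 (3.32 to 5.90%) and WT library 2 (4.79 to 7.40%) overlapped. No test was made, since 2 libraries against 2 cannot pass the threshold in a permutation test, and the intervals cover counting error only.

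**Figure D1:**
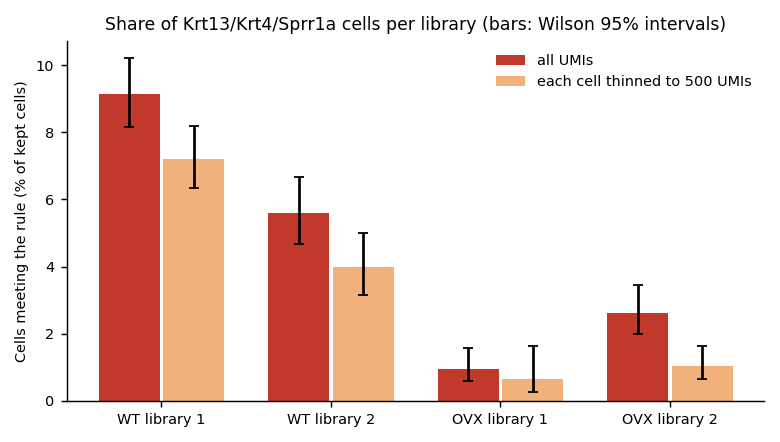
Share of kept cells (percent, vertical axis) that met the Krt13/Krt4/Sprr1a rule in each library, with all UMIs and with each cell thinned to 500 UMIs; error bars are Wilson 95% intervals. The WT libraries stand at 9.13% and 5.59%, above the OVX libraries at 0.954% and 2.62%.

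Krt13 chose most members. In WT library 1 a Krt13 UMI was found in 264 of 272 members, a Sprr1a UMI in 184 and a Krt4 UMI in 115. In WT library 2 the numbers were 98, 84 and 31 of 111. All 3 genes were seen together in 78 and 18 members, Krt13 and Sprr1a without Krt4 in 99 and 56, and Krt13 alone in 55 and 15. So most members carried at least a pair of the selecting messages in both libraries. The median sum of selecting UMIs was 13 and 6 per member. Just inside the threshold, with a sum of 3, were 26 and 14 members, and just outside it, with a sum of 2, were 41 and 34 cells.

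The libraries differed in the balance of the selecting genes. Krt13 stood at 7369 and 3176 CPM (UMIs of the gene scaled to a common total of UMIs per population) in members of WT libraries 1 and 2, the order in which all pairs of WT values are given. Sprr1a stood at 3126 and 5536 CPM and Krt4 at 810.4 and 763 CPM. Krt13 was thus higher in the first library, Sprr1a in the second and Krt4 nearly alike. Members also held Krt10 at 1669 and 1189 CPM, above Krt4, and Krt6b at 484 and 763 CPM. A Krt10 UMI was found in 150 of 272 and 52 of 111 members. Members held the basal keratins too, with Krt14 at 13540 and 12850 CPM and Krt5 at 19800 and 5270 CPM. Krt10/Krt6b cells, defined below, held more in each library. There Krt14 stood at 27360 and 24950 CPM and Krt5 at 26270 and 6915 CPM. A Krt13 UMI was found in 178 of 380 and 67 of 226 of these cells. The rule thus split cells by the balance of keratins that many of them shared. The gap between libraries in Krt5 was as wide in basal cells, at 24800 and 6390 CPM, and populations were compared within libraries. In myeloid cells, which should lack keratins, 2 of 11 cells held a Krt13 UMI in WT library 1 and 0 of 6 in WT library 2, at median depths of 995 and 512 UMIs against 1756 and 858 in members. In WT library 1 Krt10 was found in 2 and Krt6b in 3 of the 11, with up to 25 and 34 UMIs in a cell.

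Members were compared with 3 other populations of the WT libraries, each with at most 1 UMI of the dividing-cell genes. Krt10/Krt6b cells (380 and 226) held at least 3 UMIs of Krt10 and Krt6b, and at least as many of these as of the member genes. Like members, they held at most 2 UMIs of Krt1 and Calm4. Krt1/Calm4 cells (106 and 81) held at least 3 UMIs of Krt1 and Calm4, with no limit on the other keratins or Sprr1a. A Krt13 UMI was found in 60 and 32 of them. Basal cells (1090 and 987) held at least 3 UMIs of Krt5 and Krt14 and at most 2 of each other set. UMIs were summed per library and population and tested with edgeR's quasi-likelihood test with the library as a block. The spread left by the block was small (common dispersion 0.00341) and shared over all genes, so small p-values show how well a gene was counted in these libraries and say nothing about variation between mice. Genes whose UMIs follow the selecting genes from cell to cell, through depth or free RNA included, differ partly by construction. The 3 comparisons share the member cells and are not independent.

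Arg1 and Tmprss11b were proposed as markers of the members from earlier results, so their values too are described without a test and they are left out of the list counts given in the text. Arg1, the arginase that splits arginine into urea and ornithine (chromosome 10, 24915221 to 24927484), stood at 278 and 186 CPM in members and 33.2 and 34.01 CPM in Krt10/Krt6b cells. It stood at 32.8 and 0 CPM in Krt1/Calm4 cells and 0.604 and 1.26 CPM in basal cells. Members were highest of the 4 populations in both libraries. An Arg1 UMI was held by 16.2% of members in WT library 1 (Wilson 95% interval 12.3 to 21.02%) and 11.7% in WT library 2 (6.97 to 19.01%). In basal cells the shares were 0.0917% and 0.101%, at median depths of 1290 and 684 UMIs. Arg1 was therefore seen in a minority of members, up to 18 UMIs in 1 cell.

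Tmprss11b, a membrane serine protease of squamous epithelia (chromosome 5, 86657631 to 86676362), was less restricted. It stood at 449.6 and 373 CPM in members, 239 and 178 in Krt10/Krt6b cells, 332 and 176 in Krt1/Calm4 cells and 43.5 and 39.2 in basal cells. Members were again highest in both libraries, but by a smaller margin over the other suprabasal cells.

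Against Krt10/Krt6b cells, 577 of 6688 tested genes (8.63%) passed edgeR's test at an adjusted p under 0.05, 230 higher (3.44%) and 347 lower (5.19%) in members. Genes used by the rules and mitochondrial genes are left out of these counts. Genes higher in members included protease inhibitors (Spink12, Wfdc18, Serpinb2), adhesion molecules (Alcam, Epcam), the alarmin Il33, the basal keratin Krt15 and the cytochrome P450 Cyp2f2. Genes lower in members included the keratins Krt16 and Krt17, the stefins BC100530 and Stfa3, the metallothionein Mt4, the desmosomal cadherin Dsg1a and the connexin Gjb2. Without the library block 0 genes passed (274 at an unadjusted p under 0.05), and 204 passed with DESeq2. Of the genes named in the following paragraphs for this comparison, Sprr2d, Sprr2f and Pgr did not pass with DESeq2, and Serpinb2, Sprr2d, Tmprss11d and Greb1 did not pass with cells thinned to 500 UMIs.

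Spink12, a Kazal-type serine protease inhibitor, stood at 363 and 665 CPM in members against 15.3 and 26.4 CPM in Krt10/Krt6b cells. Both member values lay far above both others, and the log2 difference was 4.48 ± 0.27 (SE; edgeR adjusted p = 2e-59). In basal cells Spink12 stood at 21.8 and 27.8 CPM, close to Krt10/Krt6b cells. Wfdc18, of the whey acidic protein family of inhibitors (chromosome 11, 83709015 to 83711348), stood at 344 and 719 CPM in members against 42.1 and 90.7 CPM in Krt10/Krt6b cells. Its log2 difference was 2.90 ± 0.21, again with no overlap. Absence of overlap was a condition for naming both genes.

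Il33, a nuclear cytokine of barrier epithelia that alerts innate lymphoid cells once released (chromosome 19, 29925114 to 29960718), stood at 752 and 869.5 CPM in members. It stood at 143 and 151 CPM in Krt10/Krt6b cells, 45.1 and 33.03 in Krt1/Calm4 cells and 156 and 143 in basal cells. Members were above each of the others in both libraries, by log2 differences of 2.33 ± 0.15, 4.13 ± 0.27 and 2.41 ± 0.13. Cyp2f2, which oxidises foreign compounds (chromosome 7, 27119909 to 27133660), was likewise highest in members. It stood at 411 and 807 CPM in members, 91.9 and 147 in Krt10/Krt6b cells, 32.8 and 33.03 in Krt1/Calm4 cells and 77.3 and 174 in basal cells.

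Krt15, a keratin of the basal layer (chromosome 11, 100131758 to 100135928), separated members from the other suprabasal cells. It stood at 739 and 781 CPM in members against 119 and 144 in Krt10/Krt6b cells and 213 and 286 in Krt1/Calm4 cells. In basal cells it stood at 743 and 1012 CPM. The log2 difference was 2.49 ± 0.16 from Krt10/Krt6b cells (edgeR adjusted p = 2.48e-54) and did not pass against basal cells (edgeR adjusted p = 0.669), a value looked up after the other levels of Krt15 were seen.

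Alcam, Epcam and Egln3 were also higher. Alcam, an immunoglobulin-family adhesion molecule, stood at 110 and 106 CPM in members, 12.8 and 22.7 in Krt10/Krt6b cells and 7.25 and 25.3 in basal cells. Epcam, an epithelial adhesion molecule, stood at 311 and 231 CPM in members against 68.9 and 68.02 in Krt10/Krt6b cells. Egln3, an oxygen-sensing prolyl hydroxylase, stood at 124 and 106 CPM against 31.9 and 15.1. None of these pairs overlapped, a condition for naming these genes that 25.9% of all tested genes met in this comparison.

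**Figure D2:**
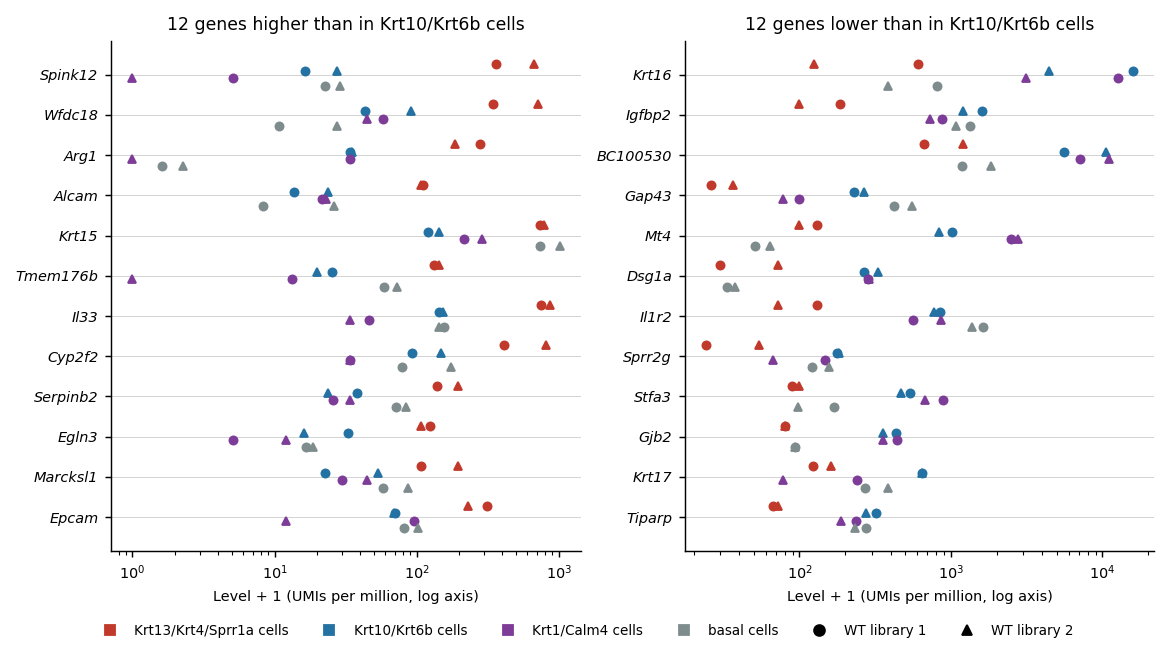
Levels (CPM plus 1, log axis) of the 12 genes furthest above and the 12 furthest below Krt10/Krt6b cells in Krt13/Krt4/Sprr1a cells, in 4 populations; circles are WT library 1 and triangles WT library 2, and Arg1 is shown as a description. Members (red) lie to the right of Krt10/Krt6b cells (blue) in the left panel and to their left in the right panel. This was a condition for choosing the genes. Krt15 is the gene of the left panel at which basal cells (grey) reach the members, at 743 and 1012 against 739 and 781 CPM.

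The keratins of activated epidermis were lower in members than in Krt10/Krt6b cells. Those cells were chosen for UMIs of Krt6b, so keratins that follow Krt6b from cell to cell differ partly by construction. The size of that part was not tested. Krt16 (chromosome 11, 100246091 to 100248902) stood at 606 and 124 CPM in members against 15920 and 4451 CPM in Krt10/Krt6b cells, a log2 difference of -4.81 ± 0.13 by edgeR. Each member value was the lower one of its library, although the libraries differed several-fold from each other. Krt17 stood at 122 and 159.7 CPM against 641 and 639, and Krt6a, a partner of both that was named for its OVX values, at 2844 and 2591 against 7266 and 5717. Of 5 tested keratins of stratified epithelium that the rules did not use, 4 fell and 1, Krt15, rose. In the last 500 bases of the Krt16 transcript 16.9% of 50-base words also occur in other genes, so some of its reads may be shared.

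Stefins, small inhibitors of cysteine proteases, were lower in members than in both other suprabasal populations. Of 9 tested stefins and cystatins, 7 fell and 0 rose against Krt10/Krt6b cells (median log2 difference -2.15 against 0.026 over all tested genes). Against Krt1/Calm4 cells 9 of 9 fell (median -3.30 against 0.033). BC100530 stood at 668 and 1198 CPM in members, 5568 and 10510 in Krt10/Krt6b cells and 7137 and 11090 in Krt1/Calm4 cells. Stfa3 stood at 88.8 and 97.6, 536 and 465 and 881 and 672 CPM in the same order. Members of both libraries lay below the others for each gene. In the BC100530 transcript end 41.5% of words occur in other genes, so counts may be split between stefins.

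Of 13 tested serine proteases and inhibitors, 3 were higher and 0 lower than in Krt10/Krt6b cells (median log2 difference 0.38). Beside Spink12 and Wfdc18 this was Tmprss11d, a membrane protease, at 118 and 169 CPM in members against 40.9 and 37.8. Against Krt1/Calm4 cells 3 of 13 were higher and 1 lower. Among the higher was Spink5, which restrains kallikreins of the skin, at 10560 and 4294 CPM in members against 5142 and 1464 in Krt1/Calm4 cells, higher within each library while the ranges over both libraries overlapped.

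Of 14 desmosome genes, which anchor keratin filaments at the membrane, 9 fell and 0 rose against Krt10/Krt6b cells. Dsg1a stood at 28.9 and 70.98 CPM in members against 267 and 329, and the cadherin Dsc3 at 305 and 169 against 729 and 729. Of 12 tight and gap junction genes, 2 rose and 3 fell. The claudin Cldn4 stood at 30.9 and 97.6 CPM in members against 2.55 and 18.9. Cldn7 stood at 42.5 and 62.1 CPM against 1.28 and 3.78, a ratio of pooled UMIs of 24.1 (95% counting interval 6.09 to 208). Gjb2 fell, at 79.1 and 79.8 CPM against 430.2 and 355. Cldn4 and Cldn7 were higher and Dsg1a, Dsc3 and Gjb2 lower in both member libraries.

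Among 11 tested cornified envelope genes outside the rule, 3 rose and 1 fell. Sprr2d stood at 129 and 169 CPM in members against 29.4 and 71.8 in Krt10/Krt6b cells, and Sprr2f at 224 and 133 against 77.9 and 45.3. Sprr2g went the other way, at 23.2 and 53.2 against 176 and 181 CPM. These proline-rich genes lie in 1 cluster with Sprr1a, and they did not move in 1 direction.

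Hormone, vitamin A and cholesterol genes that passed the test were more often lower than higher. Of 8 steroid receptors and targets, 4 fell and 0 rose. The oestrogen-induced Greb1 stood at 23.2 and 17.7 CPM against 79.2 and 56.7, and the progesterone receptor Pgr at 57.9 and 62.1 against 143 and 75.6. Of 9 retinoid genes 2 rose and 5 fell, and Lrat, which esterifies retinol, stood at 3.86 and 8.87 CPM against 86.8 and 90.7, lower in members by a ratio of pooled UMIs of 18.5 (95% counting interval 6.12 to 91.2). Of 20 cholesterol genes 6 fell and 0 rose. The fatty acid carrier Fabp5 stood at 1192 and 1659 CPM against 5033 and 6624. Greb1, Pgr, Lrat and Fabp5 were each lower in both libraries.

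Of 27 antioxidant genes 7 rose and 3 fell, and the fall included thioredoxin itself, Txn1, at 1260 and 1375 CPM in members against 4183 and 4187. Of 25 basal keratinocyte genes, chosen from outside the rules, 15 fell and 2 rose against Krt10/Krt6b cells. Of 23 S-phase genes 2, Lig1 and Mcm3, were called higher and 0 lower. Neither passed with DESeq2 or with cells thinned to 500 UMIs, where the log2 difference of Mcm3 turned from 1.38 to -0.18. Elf5, an epithelial ETS transcription factor, stood at 52.1 and 53.2 CPM against 19.1 and 7.56. It was higher in both member libraries.

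Against Krt1/Calm4 cells, 305 of 6688 genes (4.56%) passed edgeR's test, 113 higher (1.69%) and 192 lower (2.87%) in members. Krt4, although a selecting gene, stood at 791 and 848 CPM in Krt1/Calm4 cells, the level of members. Spink12 stood at 4.10 and 0 CPM there, 1 UMI in all, and was higher in members by a ratio of pooled UMIs of 139.6 (95% counting interval 24.8 to 5534). Eya2, a transcriptional coactivator, stood at 137 and 106 CPM in members against 28.7 and 22.02. The anti-inflammatory annexin Anxa1 stood at 2900 and 6104 CPM against 1790 and 2466. Without the library block 3 genes passed (262 at an unadjusted p under 0.05), and 143 passed with DESeq2. Eya2 did not pass with cells thinned to 500 UMIs.

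The genes lower than in Krt1/Calm4 cells included a transporter, a metallothionein and a differentiation peptide. Slc14a1, a urea transporter, stood at 5.79 and 0 CPM in members against 123 and 187, lower by a ratio of pooled UMIs of 29.5 (95% counting interval 9.50 to 148). Mt4, a metallothionein of stratified epithelia, stood at 129 and 97.6 CPM against 2483 and 2786, a log2 difference of -4.49 ± 0.16 by edgeR. Krtdap, a secreted differentiation peptide, stood at 1079 and 1615 CPM against 3483 and 7113. Members were below Krt1/Calm4 cells without overlap for all 3. Absence of overlap was a condition for the genes named for the largest change, and 28.3% of all tested genes met it.

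Sprr1b and Tgm3 had 0 UMIs in members. Sprr1b, a paralogue of Sprr1a, stood at 57.4 and 88.1 CPM in Krt1/Calm4 cells, at least 13.8-fold higher than members when their 0 is set to a floor of 3 UMIs over both libraries. The transglutaminase Tgm3, which crosslinks envelope proteins, stood at 36.9 and 88.1 CPM, at least 10.7-fold higher, and the serpin Serpinb3a at 57.4 and 66.1 CPM, at least 12.6-fold higher. Myeloid Cd74 stood at 0 and 0 CPM in members, 81.9 and 0 in Krt1/Calm4 cells and 10.3 and 68.2 in basal cells, and the part of such RNA in the other differences was not tested.

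**Figure D3:**
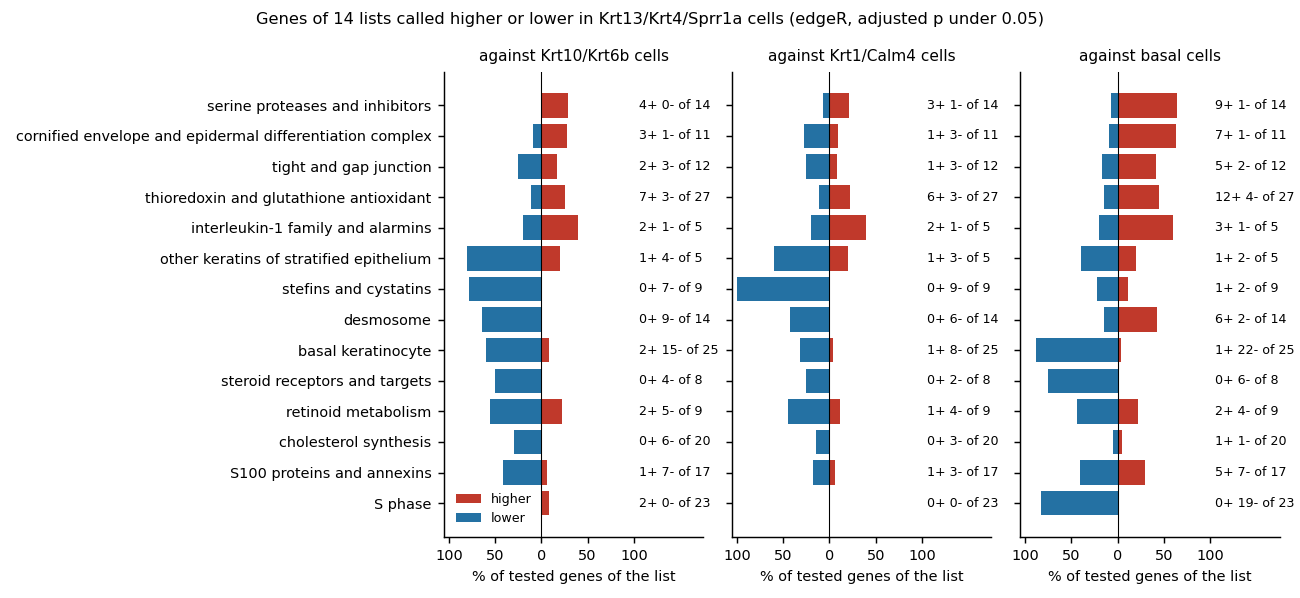
Percentage of the tested genes of 14 lists that were higher (red, to the right) or lower (blue, to the left) in Krt13/Krt4/Sprr1a cells than in 3 other WT populations by edgeR, with counts beside the bars; the serine protease bars also count Tmprss11b, a marker proposed from these data. Stefins and cystatins are lower in 9 of 9 against Krt1/Calm4 cells, and basal keratinocyte genes in 22 of 25 against basal cells.

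Against basal cells, 950 of 6688 genes (14.2%) passed edgeR's test, 438 higher (6.55%) and 512 lower (7.66%) in members. Of 25 basal keratinocyte genes 22 fell and 1 rose, and of 23 S-phase genes 19 fell and 0 rose. Both populations had the same limit on dividing-cell UMIs, but members were deeper, with medians of 1756 and 858 UMIs against 1290 and 684. The limit can thus be stricter for members, and its part in the S-phase difference was not tested. Gap43, a growth-associated protein, stood at 25.1 and 35.5 CPM in members against 423 and 552, and the matrix glycoprotein Sparc at 17.4 and 44.4 against 337 and 272. Lamb3, a laminin chain of the basement membrane, stood at 15.4 and 26.6 CPM against 179 and 154. Members were lower in both libraries for each. Without the library block 17 genes passed (407 at an unadjusted p under 0.05), and 336 passed with DESeq2. Of the genes named for this comparison, Sprr2d did not pass with DESeq2 and Tgm1 did not pass with cells thinned to 500 UMIs.

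Envelope genes and transcription factors held more rises than falls against basal cells. Of 11 envelope genes 7 rose and 1 fell. Sprr2d stood at 129 and 169 CPM in members against 1.81 and 3.79, and the transglutaminase Tgm1 at 55.96 and 79.8 against 4.23 and 2.53. Of 29 transcription factors 12 rose and 2 fell. Elf5 stood at 52.1 and 53.2 CPM against 3.02 and 6.32, and Zfp750, a regulator of terminal differentiation, at 181 and 169 against 30.8 and 29.1. No member library overlapped a basal one in these genes, against 27.2% of all tested genes.

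Protease, desmosome and antioxidant genes also held more rises than falls. Of 13 serine proteases and inhibitors 8 rose and 1 fell, and Tmprss11d stood at 118 and 169 CPM in members against 2.42 and 3.79. Desmosome genes, lower than in Krt10/Krt6b cells, were higher than in basal cells in 6 of 14 and lower in 2. Dsc2 stood at 571 and 506 CPM in members against 187 and 256, and periplakin, Ppl, at 353 and 159.7 against 124 and 61.9. Of 27 antioxidant genes 12 rose and 4 fell, and the glutathione transferase Gsta4 stood at 2300 and 3567 CPM against 506 and 842. The CDK4/6 inhibitor Cdkn2b stood at 127 and 62.1 CPM against 20.5 and 6.32, and the G1 cyclin Ccnd1 at 218 and 151 against 375 and 335. Cdkn2b was thus higher and Ccnd1 lower in both member libraries.

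Some cells with the keratin counts of members held 2 or more dividing-cell UMIs and were kept out by the rule, 116 of 388 in WT library 1 and 21 of 132 in WT library 2. Thinned to 500 UMIs, 19.1% (Wilson 95% interval 15.5 to 23.3%) of cells passing the keratin limits did so in WT library 1 and 11.8% (7.14 to 18.8%) in WT library 2. For the Krt10/Krt6b limits the shares were 7.94% (5.82 to 10.8%) and 8.10% (5.30 to 12.2%), and for the basal limits 30.5% and 27.7%. Member keratins thus stood between the others in both libraries, with intervals overlapping those of Krt10/Krt6b cells in WT library 2. With all UMIs the shares were 29.9% and 15.9% for member keratins and 18.5% and 13.4% for Krt10/Krt6b limits. They were 21.5% and 5.81% for Krt1/Calm4 and 45.1% and 32.95% for basal limits. The dividing counterparts held Krt15 at 1336 and 1307 CPM, Il33 at 680.3 and 344 CPM and Arg1 at 167 and 0 CPM.

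Members varied in Sprr1a. Thinned to 500 UMIs, 144 members of WT library 1 held a Sprr1a UMI and 128 did not, and in WT library 2 the numbers were 68 and 32, with 11 shallower members left out. With all UMIs 184 of 272 and 84 of 111 members held one. The side without Sprr1a thus includes cells that lost it through thinning. Of 554 genes with at least 10 UMIs on 1 side of each library, 10 were over 2-fold higher with Sprr1a in both libraries and 1 was lower. The 10 include Sprr1a itself and Krt6b, which the rule lets a cell hold in greater number when it has more Sprr1a. These are single values per library of a split made on a selecting gene, and they have no test.

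Gsto1, a glutathione transferase, stood at 4500 CPM with and 1906 without a Sprr1a UMI in WT library 1, and 4824 and 1812 CPM in WT library 2. Anxa1 stood at 3722 CPM with and 1844 without a Sprr1a UMI in WT library 1, and 7353 and 3375 CPM in WT library 2. The surface protein Lypd3 and the inhibitor Wfdc18 also sat with Sprr1a, and Wfdc18 stood at 472 CPM with and 203 without a Sprr1a UMI in WT library 1, and 824 and 312 CPM in WT library 2. The gene that was lower was the metallothionein Mt2, at 403 CPM with and 1453 without a Sprr1a UMI in WT library 1, and 353 and 1875 CPM in WT library 2.

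Arg1 was read in most of its UMIs from cells with Sprr1a, at 389 CPM with and 15.6 without a Sprr1a UMI in WT library 1, and 265 and 125 CPM in WT library 2, where it rests on 9 and 2 UMIs. Krt15 sat on the other side, at 500 CPM with and 828 without a Sprr1a UMI in WT library 1, and 412 and 1375 CPM in WT library 2. Krt13 had no common direction, at 9083 CPM with and 5453 without a Sprr1a UMI in WT library 1, and 3294 and 4438 CPM in WT library 2. Arg1 and Krt15 did not reach the 2-fold and UMI limits in both libraries and were chosen for mention as genes described above.

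**Figure D4:**
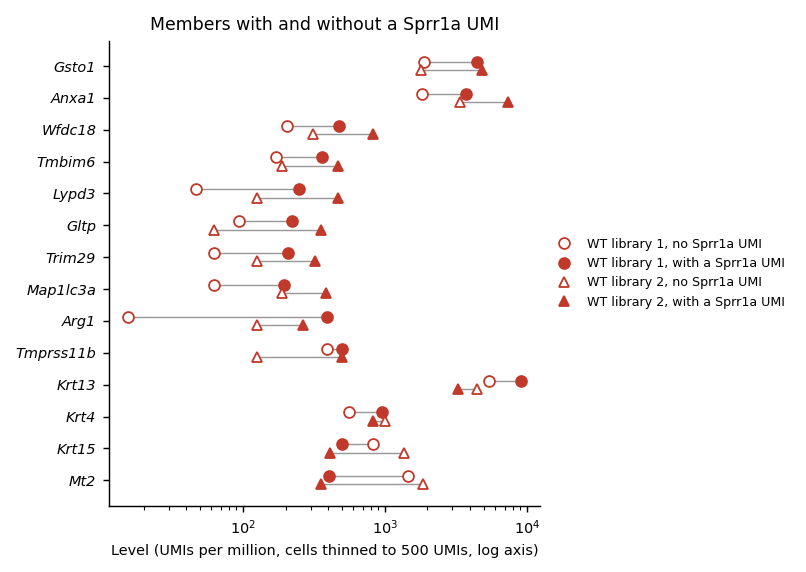
Levels (CPM, log axis) in members with (filled) and without (open) a Sprr1a UMI, each cell thinned to 500 UMIs; circles are WT library 1 and triangles WT library 2. Gsto1 and Anxa1 lie further right in cells with Sprr1a in both libraries, Mt2 and Krt15 further left, and Krt13 differs in direction between libraries.

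The 65 cells that met the rule in the OVX libraries sat closer to the threshold. A selecting sum of 3 or 4 was held by 73.3% and 74% of them, against 15.4% and 25.2% of WT members. They were also deep for their libraries, with 6 of 15 and 14 of 50 above the 95th percentile of UMIs per cell, against 9 of 272 and 4 of 111 in WT. Doublets were not called. Krt13 stood at 2560 and 2501 CPM and Sprr1a at 1012 and 719 CPM in OVX libraries 1 and 2. All cells of the rule in OVX library 1 held 16799 UMIs together, which limits what could be detected.

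Against WT members, 63 of 2012 tested genes (3.13%) passed edgeR's test, 40 higher (1.99%) and 23 lower (1.14%) in OVX. Of 24 listed genes of mucous and simple epithelium, 18 were in the data and 7 were tested, of which 6 rose and 0 fell. Listed genes near 0 in WT could enter the test only through their OVX counts, so the filter partly set this count. The calls fell to 19 without OVX library 1 and to 9 without OVX library 2, and 18 and 9 of the 63 genes were still called. With cells above the 95th percentile of UMIs left out 41 genes passed. Of the genes named below, Sprr2f, Cdkn1a, Krt6a, Krt17, Serpinb11 and Wfdc18 did not pass without OVX library 1. Krt16, Sprr2f, BC100530, Spink12, Cdkn1a, Krt17, Serpinb11, Wfdc18 and Slc12a2 did not pass without OVX library 2, where Cxcl17 and Krt18 were too low to be tested. Spink12, Cdkn1a and Krt17 did not pass without the deepest cells, and Krt16, Sprr2f, Krt17 and Wfdc18 did not pass with DESeq2.

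Krt18, a keratin of simple epithelia, stood at 595 and 539 CPM in OVX against 5.79 and 0 CPM in WT, higher by a ratio of pooled UMIs of 116 (95% counting interval 37.2 to 582). The iron-binding secreted protein Ltf stood at 714 and 569 CPM against 5.79 and 0, and the protease inhibitor Wfdc2 at 1667 and 1033 against 5.79 and 8.87 (log2 difference 7.43 ± 0.82, edgeR adjusted p = 7.27e-06). The mucosal chemokine Cxcl17 (chromosome 7, 25400053 to 25412886) stood at 357 and 434 CPM against 0 in both WT libraries, at least 88.1-fold higher against a floor of 3 UMIs over both. The OVX libraries were high and the WT libraries at or near 0 in each gene.

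The same messages were present in OVX cells outside the rule. In OVX basal cells Krt18 stood at 336 and 294 CPM, Wfdc2 at 434 and 448, Cxcl17 at 72.3 and 51.2 and Ltf at 3.14 and 18.97 CPM. Summed over 5 luminal mucous markers, cells of the rule held 1964 and 1423 CPM in OVX, with 4 and 5 markers detected, against 13.5 and 0 CPM in WT. Pigr and Muc4 were at 0 in both WT libraries. Median mitochondrial shares were 7.64% and 9.56% in OVX against 4.31% and 4.03% in WT. The part of free RNA, doublets and RNA quality in these differences was not tested.

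Genes of enzymes, a transporter and a serpin were among the others that rose. The flavin monooxygenase Fmo2 (chromosome 1, 162874317 to 162898726) stood at 1607 and 1647 CPM in OVX against 5.79 and 0 in WT members, and at 933 and 925 in OVX basal cells. The glutathione transferase Mgst1 stood at 1786 and 988 CPM against 104 and 97.6, and the chloride cotransporter Slc12a2 at 476 and 1063 against 59.8 and 17.7. Serpinb11 stood at 1131 and 1138 CPM against 174 and 213. The groups did not overlap in any of these, as was so for 41.8% of all tested genes.

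The keratins Krt16, Krt17 and Krt6a differed in direction. Krt17 rose, at 595 and 719 CPM in OVX against 122 and 159.7 in WT, whereas Krt6a fell, at 59.5 and 359 against 2844 and 2591. Krt16 was at 0 CPM in both OVX libraries against 606 and 124, at least 14.5-fold lower against the same floor of 3 UMIs. BC100530 stood at 0 and 29.9 CPM against 668 and 1198, and the cell cycle inhibitor Cdkn1a at 0 and 29.9 against 438 and 470.2. Sprr2f had 0 UMIs in OVX against 224 and 133 CPM, at least 5.78-fold lower.

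Of the genes that set WT members apart, Spink12 stood at 59.5 and 0 CPM in OVX against 363 and 665, and Wfdc18 at 119 and 44.9 against 344 and 719, both lower by edgeR (adjusted p = 0.00715 and 0.0376). The OVX sums held 16799 and 66776 UMIs in all, so the OVX levels of Spink12 and Wfdc18 rest on very few UMIs. Arg1 stood at 298 and 89.8 CPM against 278 and 186, with overlapping groups, in 2 of 15 and 5 of 50 OVX cells. Tmprss11b stood at 0 and 74.9 CPM against 449.6 and 373, without overlap. Krt15, looked up for its levels in WT, stood at 2619 and 2127 CPM against 739 and 781 and did not pass (edgeR adjusted p = 0.171), although the groups did not overlap, as was the case for 41.8% of all tested genes.

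**Figure D5:**
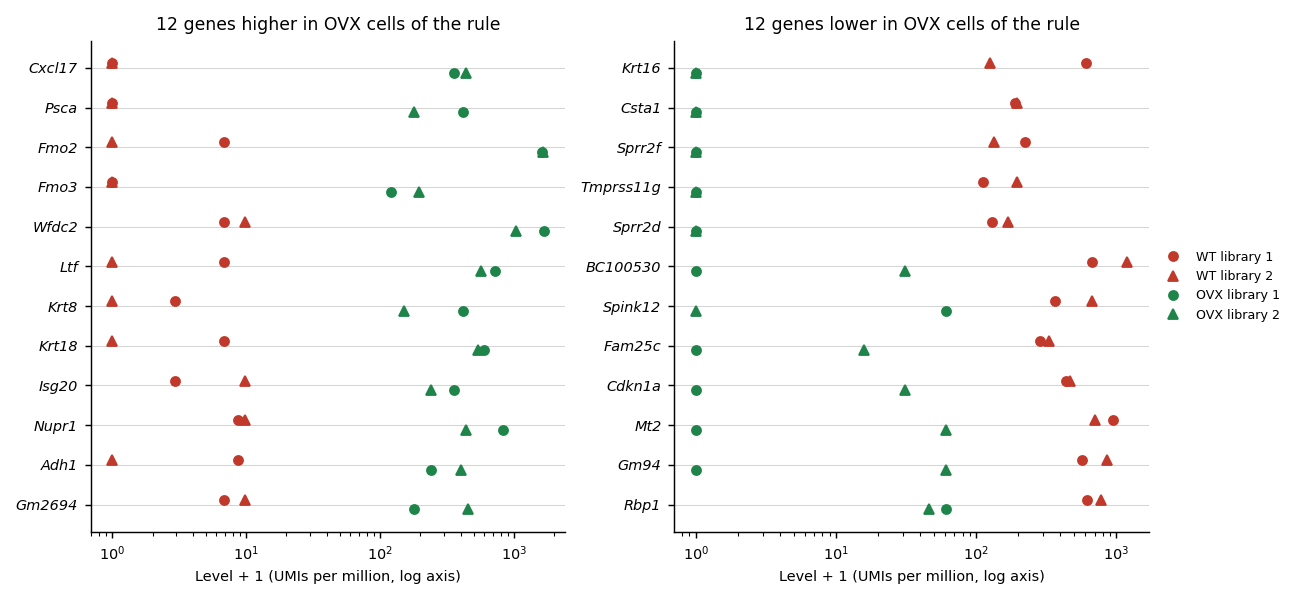
Levels (CPM plus 1, log axis) of the 12 genes furthest above and the 12 furthest below WT in OVX cells of the Krt13/Krt4/Sprr1a rule; red is WT, green OVX, circles are library 1 and triangles library 2. The OVX libraries lie on 1 side of the WT libraries in each gene, a condition for choosing these genes. Krt16, Csta1, Sprr2f, Tmprss11g and Sprr2d have 0 UMIs in both OVX libraries.

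Markers of other cell types were near 0 in WT members. The 6 myeloid markers summed to 1.93 and 0 CPM, 1 UMI in all. Those of fibroblasts (5 genes), smooth muscle (4) and T or NK cells (3) were at 0 in both libraries, and S100a9 gave 3 UMIs in WT library 2 among 3 neutrophil markers. Each pair of libraries shared 2 to 15 cell barcodes, 0 of them members.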

How the data were processed

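The authors deposited 1 matrix per library of whole-number UMI counts (genes by barcodes), with no normalization in the values. Per the submitters' processing notes the build was mm10 and Seurat 2 was used; for aligner and annotation, the entry is not given in the sources used here. UMI totals of the 4 libraries were 5845107 and 1934634 (WT) and 991112 and 1684967 (OVX).

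The members and gene lists were chosen with earlier results of these data known. Counts were summed per library and population and tested with edgeR 4.0.16 (R 4.3.3; TMM, filterByExpr, quasi-likelihood test, Benjamini-Hochberg threshold 0.05). The 4 WT populations were fitted together with the library as a block, because populations of a library come from the same mice and the same preparation. Their deviations correlated at 0.429 to 0.795 over 6715 genes, and the source of this shared library difference was not tested. OVX and WT were compared with 2 libraries each and no block. Levels are CPM of all UMIs of the population. Ratios of groups with 1 to 3 UMIs carry a 95% counting interval, and a floor of 3 UMIs replaces 0. UMI intervals cover counting error only.

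Named genes were the 12 higher and 12 lower with the largest log2 difference in each comparison, past the threshold, at 100 CPM or more in both libraries of the higher group and without overlap. Added to these were Arg1, Tmprss11b and up to 4 called genes with the largest change of each list; some genes that the rule names are not reported here. The steps were run on simulated counts with no library difference beyond depth and less spread than the OVX comparison. That run cannot show how reliable the calls given here are. Alternatives were DESeq2 1.42.0, RLE scaling, no gene filter, stricter cell limits, thinning, leaving out deep cells or a library, and the block. No doublet caller was run. Symbols were matched to GENCODE vM21 (94.1% of 25071), and promoters came from RefSeq.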

Additional observations from a re-analysis of the deposited data

How the results depend on the processing

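The WT comparisons depended on the library block and on depth. Without the replicate block the higher and lower calls were 0 and 0 (0 in all) against Krt10/Krt6b cells, 2 and 1 (3) against Krt1/Calm4 cells and 11 and 6 (17) against basal cells. Cells thinned to 500 UMIs gave 40 and 97 (137), 18 and 43 (61), and 127 and 143 (270), with fewer genes tested. DESeq2 gave 53 and 151 (204), 39 and 104 (143), and 170 and 166 (336). Against Krt10/Krt6b cells Cldn4, Cldn7 and Elf5 got no adjusted p from DESeq2 and, like Alcam, were too low to be tested after thinning; Cldn4 was also not tested without cells above the 95th percentile of UMIs. With no gene filter 137 genes were higher than in Krt10/Krt6b cells. No gene called in the main fit changed direction under DESeq2, RLE scaling or the other cell limits; thinning turned 3, 3 and 1 of the called genes that could be tested, in the 3 comparisons. RLE scaling kept all 577, 305 and 950 calls. With 1 library left out the WT comparisons have no residual degrees of freedom and give log2 ratios only. Without library 1 most values of named genes moved by more than the SD of the 2 libraries' ratios, 65 of 100, 65 of 90 and 67 of 113 in the 3 comparisons, and 33, 38 and 42 moved by over 1.5-fold; without library 2 these were 21, 15 and 15, and 2, 13 and 5.

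In OVX against WT the higher and lower calls were 23 and 7 (30) with at least 5 selecting UMIs, 22 and 9 (31) with 500 or more genes per cell, 21 and 10 (31) with at most 10% mitochondrial UMIs and 9 and 4 (13) thinned. They were 23 higher (41 in all) without cells above the 95th percentile of UMIs, and 15 lower with DESeq2. With 1 library left out the higher calls ranged from 7 to 50, the lower from 2 to 30 and all from 9 to 80, assuming that a lone library varies like the other group. The replicate block, on numbers that pair nothing in the labels, gave 13 lower and 40 in all (correlation of same-numbered deviations -0.329 over 2028 genes). The crossed replicate block, added after the data were seen, gave 87 higher and 50 lower, 137 in all.

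Some named genes changed sign, and the cause was not tested. Against Krt10/Krt6b cells these were Maf (log2 0.62 without library 1, -1.42 without library 2) and Mcm3 thinned (-0.18). Against Krt1/Calm4 cells they were Fdps thinned (0.090) and, without library 1 or 2 in turn, Hspb1 (0.050 and -0.62) and Rxra (0.10 and -2.44). Against basal cells it was Stfa3 (0.0045 and -0.91 in the same order).

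The share of members was 7.72% and 4.18% in WT and 0.254% and 0.682% in OVX with at least 5 selecting UMIs. It was 7.22% and 3.99% in WT and 1.02% in OVX library 2 after thinning, and 2.79% and 4.44% in OVX with 500 or more genes per cell, where WT stood at 9.11% and 5.97%. Depth limits the OVX comparison, where 15 cells make up 1 library.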
